A study of Mus musculus with 4 samples.

Results

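The genes described here encode the mitotic cyclin-dependent kinase, proteins that switch it on and off, and cyclin F, which binds no such kinase. These are the cyclins Ccna2, Ccnb1, Ccnb2 and Ccnf, the kinase Cdk1, the phosphatases Cdc25a, Cdc25b and Cdc25c, and the inhibitory kinases Wee1 and Pkmyt1. They were chosen by name for their role and not by a threshold on measured values, although earlier results of these data were known. All 10 genes were among the 14533 genes of the deposited expression table, and all 10 passed the filter on low values that left 13005 genes for testing.

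RNA-seq was performed on mouse embryonic stem cells (ESCs) kept in either of 2 culture conditions, with 2 libraries per condition and 4 in all. Serum ESCs were grown in serum-containing medium with leukaemia inhibitory factor (LIF), and 2i ESCs in serum-free medium with LIF, the MEK inhibitor PD0325901 and the GSK3 inhibitor CHIR99021. Both populations had been adapted for over 20 days and were sorted in late G1-phase by the sample labels, while the series text speaks of early G1-phase. The labels name no cell line and no genetic change for these libraries, and basal medium, serum and inhibitors differ together between the conditions. For sorting by phase the study describes ESCs that carry fluorescent FUCCI reporters, made from fragments of CDT1 and geminin. Its RNA-seq methods say that cells were sorted, but not whether these reporter cells were used. The series describes its replicates as biological but does not say whether they were separate cultures or sorts, so that p-values measure the spread between these libraries.

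CDK1 phosphorylates many proteins as cells enter mitosis, and it is active only when bound to a cyclin, chiefly of the A or B type. Until then WEE1 and PKMYT1 hold the cyclin-bound kinase inactive by phosphorylating it beside its ATP-binding site, and CDC25 phosphatases take these phosphates off again. Transcripts of many of these genes accumulate from S-phase to mitosis under E2F, B-MYB and FOXM1, and are kept low in G1-phase by repressor complexes that bind the cell cycle genes homology region (CHR) of their promoters. Mouse ESCs grown in serum are known for a short G1-phase, and for high CDK activity through much of the cycle. For ESCs in the serum-free medium with both inhibitors, the study reports a longer G1-phase and higher levels of CDK inhibitor proteins.

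The point where both inhibitory kinases and the CDC25 phosphatases act is shown first, because the regulators of opposing sign in this group meet there. It lies in exon 3 of Cdk1 at chr10:68808954-68808979 on the minus strand (build NCBIM37), and the stretch below covers coding bases 38 to 63 of a protein of 297 residues. Capitals mark the codons of threonine 14 and tyrosine 15, of which tyrosine 15 is the site of WEE1 and both are sites of PKMYT1.
Cdk1 inhibitory site: gtACTTACggtgtggtgtataagggt

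The promoters show which of the DNA motifs known from cell cycle genes lie at these genes. RefSeq promoter windows (build GRCm38.p6, not the build of the expression data) of 300 bases, from 250 before to 50 after the annotated start, were held for 6 of the 10 genes: Ccnb1, Ccnb2, Ccnf, Cdk1, Cdc25a and Cdc25b. The windows of Ccna2, Cdc25c, Wee1 and Pkmyt1 were not analysed here. Both strands were searched for CCAAT, which NF-Y binds, for the CHR as TTTGAA or TTCGAA, and for the E2F motifs TTTGGCGC, TTTCCCGC, TTTCGCGC and TTTGCCGC. The last 150 bases before the start are printed for 5 genes in the direction of transcription, with motif matches in capitals, so that ATTGG is a CCAAT of the other strand. They lie at chr13:100786487-100786636 (minus strand, Ccnb1), chr9:70421555-70421704 (minus strand, Ccnb2), chr17:24251410-24251559 (minus strand, Ccnf), chr10:69352913-69353062 (minus strand, Cdk1) and chr9:109875429-109875578 (plus strand, Cdc25a).
Ccnb1: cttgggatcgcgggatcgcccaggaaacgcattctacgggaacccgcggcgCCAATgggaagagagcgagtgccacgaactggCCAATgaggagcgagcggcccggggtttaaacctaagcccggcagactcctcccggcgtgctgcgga
Ccnb2: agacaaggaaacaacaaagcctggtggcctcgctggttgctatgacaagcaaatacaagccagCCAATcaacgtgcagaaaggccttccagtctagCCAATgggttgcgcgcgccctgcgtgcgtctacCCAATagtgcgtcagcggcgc
Ccnf: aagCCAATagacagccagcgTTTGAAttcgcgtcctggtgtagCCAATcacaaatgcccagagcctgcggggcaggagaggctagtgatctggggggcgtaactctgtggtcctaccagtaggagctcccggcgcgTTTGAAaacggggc
Cdk1: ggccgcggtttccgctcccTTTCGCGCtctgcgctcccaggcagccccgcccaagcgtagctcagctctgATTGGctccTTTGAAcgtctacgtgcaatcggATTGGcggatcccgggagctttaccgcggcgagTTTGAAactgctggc
Cdc25a: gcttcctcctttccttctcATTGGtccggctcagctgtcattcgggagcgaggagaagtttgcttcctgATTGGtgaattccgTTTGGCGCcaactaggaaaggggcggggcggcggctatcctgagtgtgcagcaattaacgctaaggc

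CCAAT was found in all 6 windows, against 37.4% of the 32851 promoter windows in the table. Ccnb2 and Cdk1 held 3 matches each, Ccnb1, Ccnf and Cdc25a held 2, and Cdc25b held 1. A CHR was found in 4 of 6 windows, against 19.2% of all windows. Ccnf and Cdk1 carried TTTGAA close to the start, at -14 to -9 and -15 to -10, as well as farther upstream. The matches of Ccnb2 lay at -167 to -162 and, past the start, at 5 to 10, and the single match of Cdc25b was a TTCGAA at 8 to 13, so these lie outside the printed bases. An E2F motif was found in 2 of 6 windows, against 2.26% of all windows, at -131 to -124 of Cdk1 and -67 to -60 of Cdc25a. Only Cdk1 among the 6 held all 3 kinds of motif. None of the motifs overlapped another in these windows. A match is a run of letters and not a measured binding site.

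**Figure D1:**
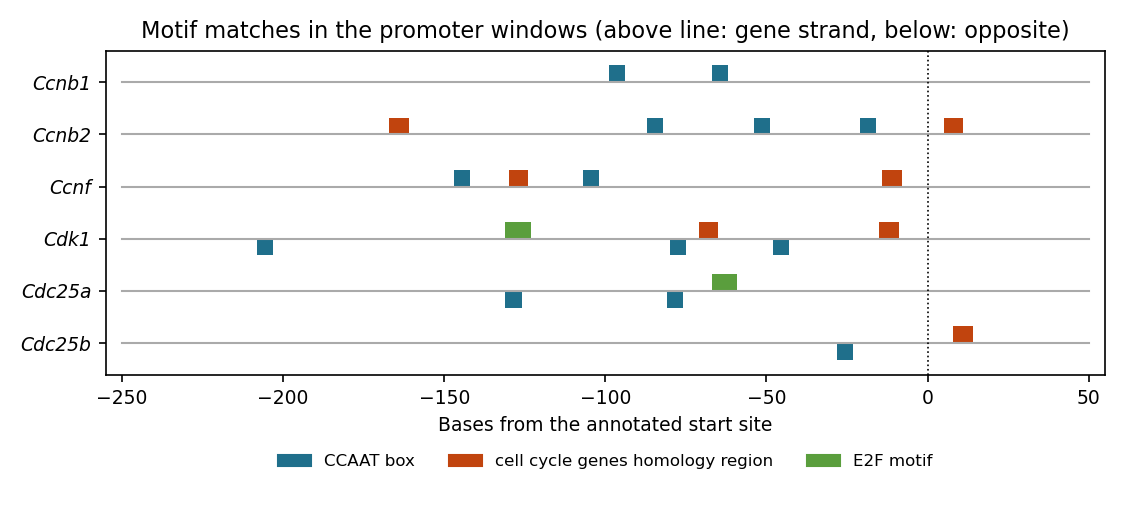
Positions of motif matches in the promoter windows of 6 genes, in bases from the annotated start site (x axis), with matches on the gene's strand above each line and on the opposite strand below it. CCAAT boxes (blue) appear in every window, CHR matches (red) in 4 and E2F motifs (green) in Cdk1 and Cdc25a.

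The libraries held between 18939401 and 26570098 reads assigned to genes. The share taken by protein-coding genes ran from 46.9% to 76.3%, and that of the 10 genes with most reads from 17.5% to 50.6%, with serum replicate 1 at the low end of the first and the high end of the second. Replicate differences were shared in part between the conditions (Pearson's r = 0.480 across genes, which are not independent replicates). All 10 ESC markers examined, among them Pou5f1, Sox2 and Nanog, had reads in every library, and their summed normalized counts were 62400 and 88460 in serum, against 71030 and 92310 in 2i. The 4 measured markers of primitive endoderm, an extraembryonic lineage, summed to 72.04 and 108.9 in serum, against 332.2 and 256.1 in 2i, and 2 measured fibroblast markers to 230.1 and 193.4 in serum, against 199.3 and 58.20 in 2i. Single markers differed more than these sums. Lin28a, an RNA-binding protein of ESCs, had 2656 and 5038 normalized counts in the serum libraries, against 743.3 and 427.8 in the 2i libraries, a log2 fold change of 2.69 that DESeq2 called (adjusted p = 0.000849) and limma did not (adjusted p = 0.753), and Dppa5a was at the other end of the ESC list at -0.93. Of the endoderm factors tested, Gata6 differed by -2.28 and Gata4 by -2.70, and of the fibroblast genes Thy1 differed by 2.40 and Col1a1 by -1.33, none past the limma test. Of 7 endoderm markers listed, Dab2, Foxa2 and Sox7 were not among the genes measured. Of 6 fibroblast markers, Acta2, Col1a2, Col3a1 and Postn were not, so the sums leave these out. None of the measured markers was at 0 in any library, and the part of other cell types in the results below was not tested.

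Each gene was compared as log2(normalized count + 1) with limma, where a normalized count is a read count divided by the scaling factor of its library, and fold changes are serum over 2i on that scale. The transcripts of 7 of the 10 genes had higher values in both serum libraries than in either 2i library: Ccna2, Ccnb1, Ccnb2, Ccnf, Cdc25a, Cdc25c and Wee1. Over all genes tested, 20.5% had this order. Ccnb2 lost it under TMM, upper quartile and quantile scaling, which left 6 genes, while 16.4% to 22.4% of all genes had the order there. Pkmyt1 alone lay lower in both serum libraries than in either 2i library, an order that 19.4% of all genes had, and Cdk1 and Cdc25b overlapped between the conditions. Pkmyt1 overlapped too under quantile normalization. The median log2 fold change of the 10 genes was 0.87, against 0.0047 for all genes tested. In bulk RNA, fewer cells of a type and less RNA per cell cannot be told apart.

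No gene of the 10 passed an adjusted p of 0.05 with a 2-fold change in limma (Benjamini-Hochberg over 13005 genes), where 0.0154% of all genes did so in either direction. At an unadjusted p under 0.05 with a 2-fold change, only Ccna2 passed among the 10, against 2.97% of all genes in the same direction. DESeq2 on the recovered whole reads called 1 of the 10, again Ccna2, against a background of 0.561% of genes higher in serum. edgeR called 0 of the 10, as it called 0 of all genes tested in either direction. Ccna2 was the only gene of the 10 at an unadjusted edgeR p under 0.05. With a 2-fold change as well, 2.21% of all genes passed that edgeR rule higher in serum. The count at an unadjusted p with a 2-fold change varied between settings. Fits with a library left out leave 1 library in a condition, and their counts are left out here. In DESeq2 the count was 1 of the 10, against 4.56% of all genes higher in serum. In 5 other settings it was 2, against 3.21% to 4.9% of all genes. The second gene beside Ccna2 was Cdc25c, or Wee1 in the setting that corrected for GC content and length alone. An exact two-sided permutation test of any single gene has only 3 ways to split these libraries and so cannot reach a p of 0.05.

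**Figure D2:**
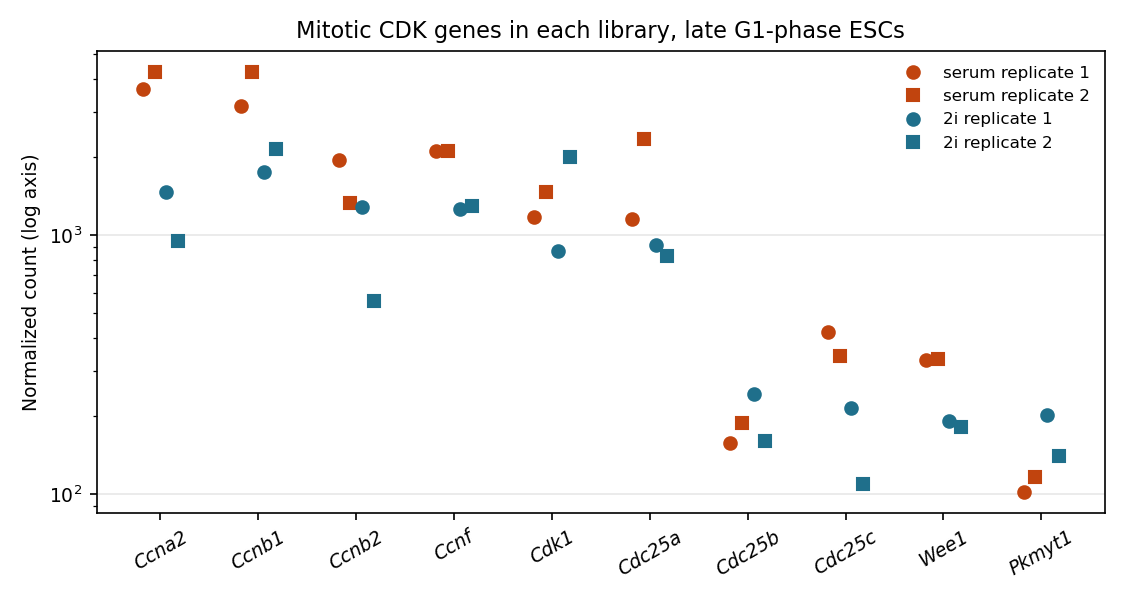
Normalized counts (y axis, log scale) of the 10 genes in each of the 4 libraries, with serum in red, 2i in blue, circles for replicate 1 and squares for replicate 2. For 7 genes both red points lie above both blue ones, while Cdk1 in the 2i libraries spans 868.9 to 2004 and encloses both serum values.

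Of the cyclins, Ccna2 differed most between the conditions. Cyclin A2 partners CDK2 in S-phase and CDK1 in G2-phase, and is destroyed early in mitosis. Ccna2 (ENSMUSG00000027715, chr3:36463788-36471072, NCBIM37) had 3666 and 4262 normalized counts in the serum libraries, against 1467 and 947.7 in the 2i libraries. Both serum libraries were thus well above both 2i libraries, and the differences of each serum library from each 2i library, called pairings below, ran from 1.32 to 2.17 on the log2 scale. Its log2 fold change was 1.74 (SE 0.46, 95% interval 0.64 to 2.85, n = 2 libraries per condition), which is 3.35-fold, with an unadjusted p of 0.00794 and an adjusted p of 0.753 in limma. In DESeq2 the estimate was 1.69 (SE 0.45) with an adjusted p of 0.0165, and the edgeR adjusted p was 0.692. Exosc9, on the opposite strand, shares 14.6% of the exonic bases of Ccna2. Whether reads were counted by strand is not given in the sources used here, and Exosc9 itself had 792.4 and 910.8 normalized counts in the serum libraries, against 724.6 and 512.2 in the 2i libraries.

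Ccnb1 encodes cyclin B1, the main partner of CDK1 at mitotic entry. Ccnb1 (ENSMUSG00000041431, chr13:101548605-101556525) had 3165 and 4280 normalized counts in the serum libraries, against 1758 and 2150 in the 2i libraries. The conditions did not overlap, and the pairings differed by 0.56 to 1.28. The log2 fold change of 0.92 (SE 0.45, 95% interval -0.16 to 2.00) did not pass the test (limma, adjusted p = 0.753). The values of Ccnb1 are uncertain as to source, since 62.6% of the 2447 words of 43 bases, the read length, in its longest transcript occur elsewhere in the genome. The annotated genes Gm5593 and Gm12856 hold many of them, and neither was analysed here.

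Cyclin B2 (Ccnb2, ENSMUSG00000032218, chr9:70255496-70269361) is the other widely used B-type cyclin, found at the Golgi in many cells. Its values were 1958 and 1326 normalized counts in the serum libraries, against 1286 and 554.9 in the 2i libraries. The lower serum library and the higher 2i library were nearly level, 0.044 apart on the log2 scale, while the 2i replicates differed from each other by 1.21. The log2 fold change of 0.93 (SE 0.56, 95% interval -0.41 to 2.27) was smaller than that spread, with an adjusted p of 0.753 in limma. Leaving out 2i replicate 2 gave 0.325, and leaving out 2i replicate 1 gave 1.54.

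Ccnf encodes cyclin F, which binds no CDK and instead directs substrates, RRM2 among them, to destruction as part of an SCF ubiquitin ligase. Ccnf (ENSMUSG00000072082, chr17:24359494-24388292) showed the closest replicates of the 10 genes, with 2107 and 2109 normalized counts in the serum libraries, against 1259 and 1298 in the 2i libraries. Each pairing gave nearly the same difference, 0.70 to 0.74. Since limma sets the error of a gene partly from all other genes, the log2 fold change of 0.72 carried an SE of 0.42 and a 95% interval of -0.28 to 1.72, and did not pass (adjusted p = 0.753).

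Cdk1, the kinase that the A- and B-type cyclins drive, showed no direction between the conditions. Cdk1 (ENSMUSG00000019942, chr10:68799383-68815686) had 1173 and 1464 normalized counts in the serum libraries, against 868.9 and 2004 in the 2i libraries. The lowest and the highest of the 4 values were both 2i libraries, and the 2i replicates differed by 1.21 on the log2 scale. The fitted log2 fold change was -0.010 (SE 0.54, limma adjusted p = 0.997), and its 95% interval of -1.31 to 1.29 leaves room for a change of over 2-fold either way. Without 2i replicate 2 the estimate was 0.592, and without 2i replicate 1 it was -0.613.

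Counts per kilobase of the longest transcript allow levels to be compared between genes of a library, and their ratio does not depend on how that library was scaled. The ratio of Ccna2 to Cdk1 per kilobase was 3.04 and 2.84 in serum, against 1.64 and 0.460 in 2i. Ccna2 thus exceeded Cdk1 in 3 libraries and was the lower of the pair in 2i replicate 2. For Ccnb1 the ratio was 3.13 and 3.39 in serum, against 2.35 and 1.24 in 2i, again without overlap. The ratios of Ccnb2 to Cdk1, 3.13 and 1.70 in serum, against 2.77 and 0.519 in 2i, and of Ccnf to Cdk1, 1.39 and 1.12 in serum, against 1.12 and 0.502 in 2i, overlapped. Only the comparison between libraries of a ratio of single genes is free of the transcript length taken. With the mean length of each gene's transcripts every ratio to Cdk1 was lower, from 1.95 to 0.294 for Ccna2, from 1.96 to 0.718 for Ccnb1 and from 1.09 to 0.182 for Ccnb2, and Ccnf was below Cdk1 in every library. In all 4 ratios 2i replicate 2, the library with the highest Cdk1 value, was the lowest.

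**Figure D3:**
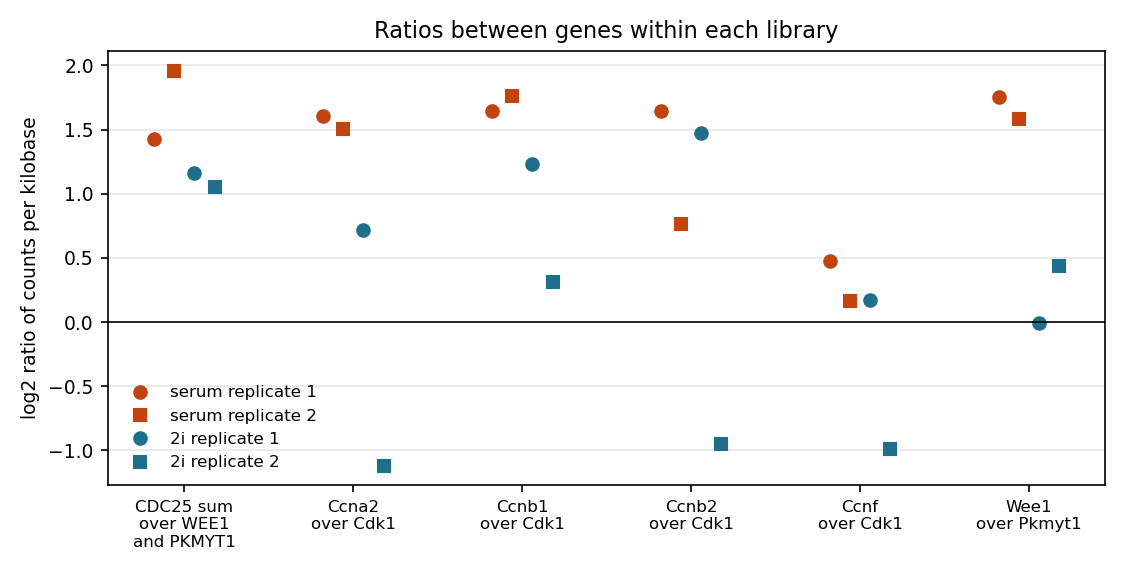
Log2 ratios of counts per kilobase between genes within each library (y axis), with serum in red, 2i in blue, circles for replicate 1 and squares for replicate 2. The ratio of Wee1 to Pkmyt1 is 1.76 and 1.58 in serum and -0.0049 and 0.44 in 2i on this log2 scale, and 2i replicate 2 is lowest in each ratio to Cdk1.

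The activating phosphatases did not move together. CDC25A acts at entry into S-phase as well as mitosis, and is known as an unstable protein that checkpoint kinases mark for destruction. Cdc25a (ENSMUSG00000032477, chr9:109778083-109796392) had 1155 and 2363 normalized counts in the serum libraries, against 919.8 and 828.4 in the 2i libraries. Both serum values were above both 2i values, but the serum replicates were themselves 1.03 apart on the log2 scale, more than the fitted difference of 0.92 (SE 0.51, 95% interval -0.30 to 2.14, limma adjusted p = 0.753). Without serum replicate 2 that difference was 0.403, and without serum replicate 1 it was 1.44.

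CDC25C is held by 14-3-3 proteins in interphase and takes part in the feedback that activates cyclin B and CDK1 at mitosis. Cdc25c (ENSMUSG00000044201, chr18:34892651-34911187) had 423.2 and 341.2 normalized counts in the serum libraries, against 214.9 and 109.6 in the 2i libraries. These groups lay apart, with pairings from 0.66 to 1.94. Its log2 fold change of 1.30 (SE 0.55, 95% interval -0.020 to 2.62) was the next largest of the 10 after Ccna2, with an unadjusted p of 0.0527 and an adjusted p of 0.753 in limma and 0.407 in DESeq2. Without 2i replicate 2 it was 0.820.

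CDC25B is regarded as the starter phosphatase, active at the centrosome in G2-phase. Cdc25b (ENSMUSG00000027330, chr2:131012685-131024233) had 157.1 and 188.6 normalized counts in the serum libraries, against 244.0 and 161.0 in the 2i libraries. The conditions overlapped, with a serum library at the bottom and a 2i library at the top, and the log2 fold change was -0.20 (SE 0.53, 95% interval -1.49 to 1.08, limma adjusted p = 0.935). Without 2i replicate 1 it was 0.0955.

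The inhibitory kinases had opposite orders. WEE1 is nuclear and phosphorylates tyrosine 15 of CDK1, within the site printed above. Wee1 (ENSMUSG00000031016, chr7:117265864-117285626) had 328.2 and 332.4 normalized counts in the serum libraries, against 192.1 and 181.4 in the 2i libraries. Its replicates were close in both conditions, and the pairings differed by 0.77 to 0.87. The log2 fold change of 0.82 (SE 0.47, 95% interval -0.31 to 1.95) did not pass the test (limma, adjusted p = 0.753).

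PKMYT1 sits at the membranes of the endoplasmic reticulum and Golgi and phosphorylates threonine 14 as well as tyrosine 15. Pkmyt1 (ENSMUSG00000023908, chr17:23863303-23873696) had 102.1 and 116.6 normalized counts in the serum libraries, against 202.4 and 140.7 in the 2i libraries. It was the only gene of the 10 with both 2i values above both serum values. The mean difference of -0.62 on the log2 scale (SE 0.58, 95% interval -2.01 to 0.76), or 1.54-fold higher in 2i, did not pass (limma, adjusted p = 0.798). It shrank to -0.17 when GC content and length were corrected for, to -0.38 with quantile normalization and to -0.36 without 2i replicate 1. Paqr4 on the opposite strand shares 15.4% of the exonic bases of Pkmyt1, and had 44.02 and 29.16 normalized counts in the serum libraries, against 15.57 and 48.50 in the 2i libraries.

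**Figure D4:**
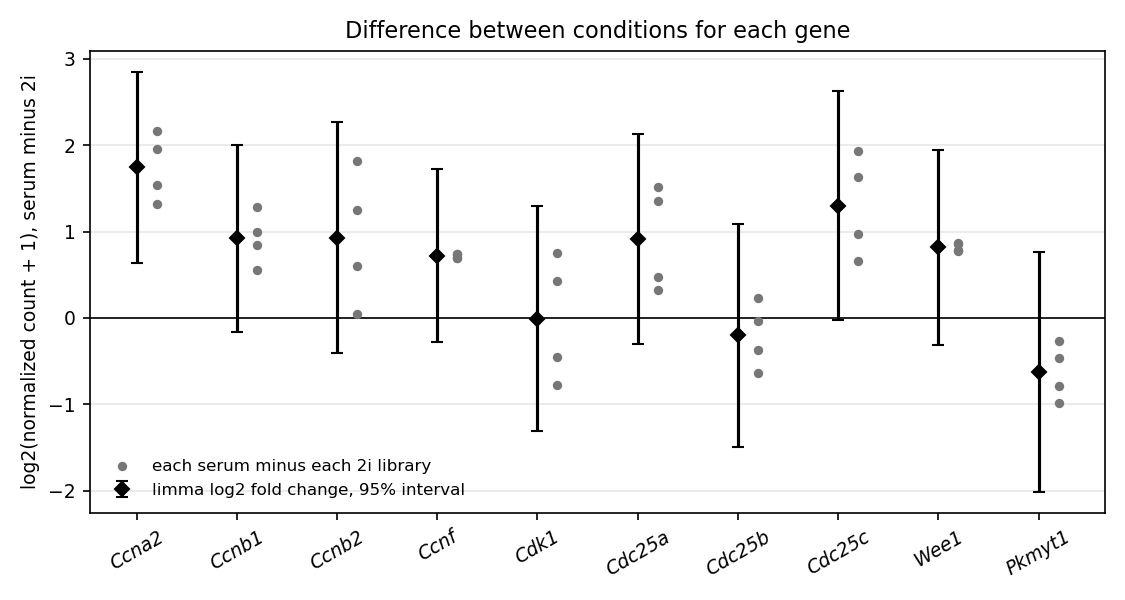
Log2 fold change of serum over 2i for each gene (diamonds, with 95% limma intervals) and the difference of each serum from each 2i library (grey points), on the scale log2(normalized count + 1). The interval of Ccna2, 0.64 to 2.85, is the only one that excludes 0 before adjustment, while Ccnf and Wee1 have the tightest points.

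The ratio of Wee1 to Pkmyt1 per kilobase, looked at after their values had been seen, was 3.38 and 2.99 in serum, against 0.997 and 1.36 in 2i. Wee1 was thus about level with Pkmyt1 in 2i and above it in serum. Correcting for GC content and length, not done in these ratios, moved the log2 fold change of Wee1 to 1.02 and Pkmyt1 to -0.17. The CDC25 transcripts summed per kilobase exceeded the sum of both inhibitory kinases in every library, by 2.68- and 3.89-fold in serum and 2.24- and 2.08-fold in 2i. These did not overlap, and their log2 means differed by 0.58. With the mean transcript length the excess was 3.38- and 5.01-fold in serum and 3.11- and 2.88-fold in 2i, and the log2 means differed by 0.46. The higher serum value came with the library in which Cdc25a was highest.

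Per kilobase of the longest transcript, the levels ran over a wide range. In serum the order of mean counts per kilobase was Ccnb1 (1495), Ccna2 (1337), Ccnb2 (1065), Ccnf (566.7), Cdc25a (485.2), Cdk1 (456.8), Cdc25c (196.9), Wee1 (170.2), Cdc25b (55.95) and Pkmyt1 (53.63). In their replicates Ccna2 overlapped with Ccnb1 and with Ccnb2, Ccnf with Cdc25a, Cdc25a with Cdk1, and Cdc25b with Pkmyt1. Cdc25c at 218.0 and 175.8 lay just above Wee1 at 169.1 and 171.3. In 2i the mean counts per kilobase were Ccnb1 784.9, Ccnb2 597.4, Cdk1 497.7, Ccna2 407.3, Ccnf 343.7, Cdc25a 241.1, Wee1 96.20, Pkmyt1 84.13, Cdc25c 83.59 and Cdc25b 65.55. In 2i each gene overlapped its neighbour in this order from Ccnb1 through Ccnf and again from Wee1 through Cdc25b, while Cdc25a stood apart from both neighbours. The order depends on the transcript taken. With the mean length of a gene's transcripts Cdk1 came to 1305 counts per kilobase in serum, above Ccnb2 (1065) and Ccnf (625.8), and to 1422 in 2i, the highest of the 10 genes and above Ccnb1 (1294).

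The wider network of mitotic entry was described by 5 lists with 34 genes tested in all. Their median log2 fold change was 0.51, and 26 of the 34 lay above 0, against 50.26% of all genes tested. limma called 0 of them at an adjusted p under 0.05 with a 2-fold change, against 0.0154% of all genes in either direction. edgeR called 0 of them and 0 of all genes tested. DESeq2 also called 0 of them, against 0.561% of all genes higher in serum. At an unadjusted limma p under 0.05 with a 2-fold change, 4 were higher in serum, against 2.97% of all genes. In 16 genes both serum values were above both 2i values, against 20.5% of all genes, and in 1 below, against 19.4%.

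The median of the Polo, Aurora and Greatwall branch was 0.66 over 8 genes, and 0.216 without serum replicate 2 or 1.11 without serum replicate 1. This branch, whose kinases promote the activation of CDK1 or hold back the opposing phosphatase PP2A, held 3 of these 4 genes. Plk1, which phosphorylates CDC25C and marks WEE1 for destruction, had 692.4 and 904.9 normalized counts in the serum libraries, against 281.3 and 119.3 in the 2i libraries. This was the largest difference in the 5 lists, at a log2 fold change of 2.10 (limma unadjusted p = 0.00876). Aurka, the Aurora kinase that activates PLK1, had 738.4 and 1159 normalized counts in the serum libraries, against 247.1 and 383.2 in the 2i libraries, a log2 fold change of 1.58 (limma unadjusted p = 0.0166). Mastl, the Greatwall kinase, had 668.3 and 1108 in serum, against 401.8 and 381.2 in 2i, a log2 fold change of 1.13 (limma unadjusted p = 0.0488). Each of the 3 had an adjusted p of 0.753 in limma. The substrate of Greatwall Ensa was the lowest of the 8 genes tested, at 931.5 and 1347 normalized counts in the serum libraries, against 1087 and 1892 in the 2i libraries (log2 fold change -0.36).

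Among 5 transcription factors of G2/M genes, Foxm1 had 456.2 and 498.6 normalized counts in the serum libraries, against 190.0 and 111.6 in the 2i libraries, a log2 fold change of 1.70 (limma unadjusted p = 0.0141, adjusted p = 0.753). The other 4, Mybl2 and the NF-Y subunits that bind CCAAT, lay between -0.40 (Nfya) and 0.64 (Nfyc). Both serum values were above both 2i values in 4 of the 5 factors, against 20.5% of all genes. Of the CDK-activating kinase, which phosphorylates the T-loop of CDK1, Ccnh had 750.4 and 1018 normalized counts in the serum libraries, against 558.5 and 520.9 in the 2i libraries (log2 fold change 0.70). Cdk7 differed by 0.68, and Mnat1 by -0.03, with 709.4 and 937.0 in serum, against 760.9 and 910.8 in 2i. Neither Ccnh nor Cdk7 passed the test.

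The other cyclins and partners had 4 genes tested, all with a log2 fold change above 0 and none past the test, and a median of 0.70 that was 0.431 without serum replicate 2. Cks2, a small adaptor that binds CDKs, was the highest, with 594.3 and 1428 normalized counts in the serum libraries, against 424.6 and 470.5 in the 2i libraries (log2 fold change 1.04), where the lower serum value came close to the 2i values. Cdk2, the S-phase kinase, was the lowest at 0.20, with 1680 and 1188 in serum, against 1146 and 1314 in 2i. Ccna1, the germline A-type cyclin, was at 2.916 to 47.75 normalized counts and was not tested, and Ccnb3 was not analysed here. The list of checkpoint and turnover genes acting on CDC25 and WEE1 had a median of 0.25 over 14 genes. Of this list 0 passed at an unadjusted limma p under 0.05, against 776 of the 13005 genes tested. Its ends were Usp28, a deubiquitinase, at 1635 and 2646 normalized counts in the serum libraries, against 1494 and 472.4 in the 2i libraries (log2 fold change 1.31), and Mapkapk2, a stress kinase that acts on CDC25 proteins, at 283.1 and 268.3 in serum, against 359.2 and 467.6 in 2i (log2 fold change -0.57). The median of this list was -0.205 without 2i replicate 1 and -0.015 without serum replicate 2, so it has no stable direction. Chek1, the checkpoint kinase that inhibits CDC25A, had 1126 and 1831 in serum, against 615.6 and 765.3 in 2i (log2 fold change 1.06, limma unadjusted p = 0.0595).

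**Figure D5:**
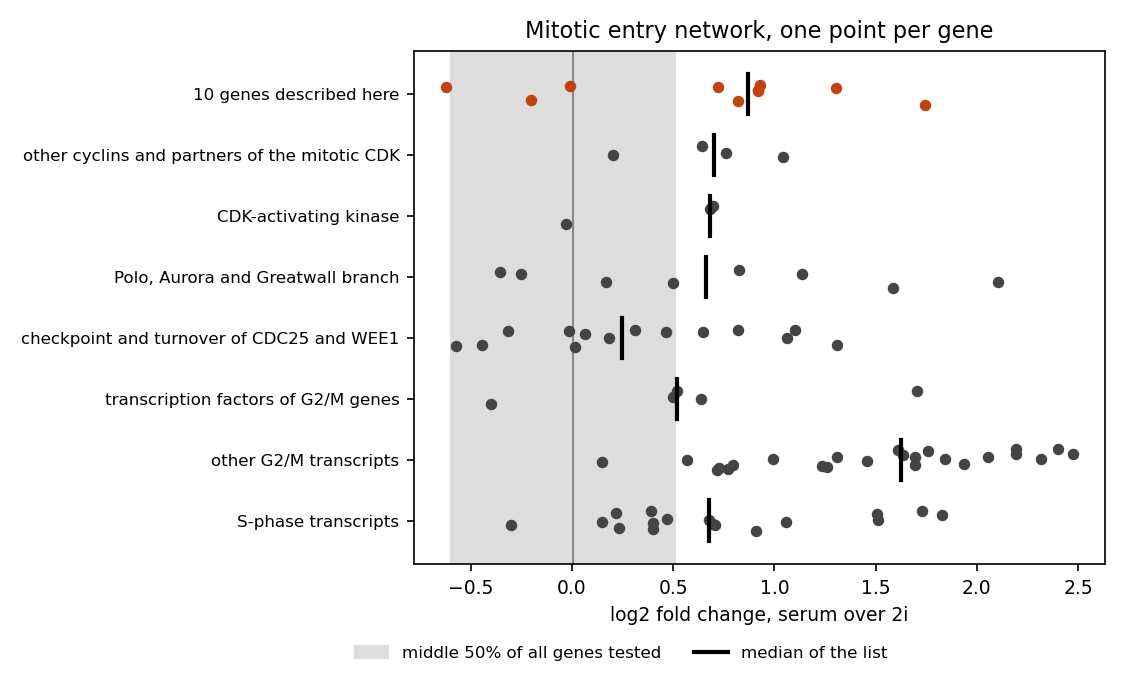
Log2 fold change of serum over 2i (x axis) for the 10 genes (red) and the genes of 7 lists (dark points, one per gene), with the median of each list as a black bar and the middle 50% of all genes tested in grey. The medians are 0.87 for the 10 genes and 1.62 for the other G2/M transcripts, and the median of all genes, the grey line, is 0.0047.

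The values of the 10 genes stood beside those of transcripts that peak in the same part of the cycle. All 24 other G2/M transcripts tested had a log2 fold change above 0, with a median of 1.62. In 22 both serum values were above both 2i values, against 20.5% of all genes. limma called 0 of the 24 after adjustment, against 0.0154% of all genes in either direction. At an unadjusted limma p under 0.05 with a 2-fold change 17 passed, against 2.97% of all genes in that direction. DESeq2 called 9, against 0.561% of all genes higher in serum: Birc5, Bub1b, Cdc20, Cenpe, Hmmr, Kif20a, Kif23, Tpx2 and Ttk. The highest was Hmmr, a spindle assembly factor, with 3312 and 6253 normalized counts in the serum libraries, against 1056 and 631.5 in the 2i libraries (log2 fold change 2.48). Aurkb, the kinase of the chromosomal passenger complex, was the lowest at 0.15, with 389.2 and 324.6 in serum, against 354.0 and 290.0 in 2i. Apart from Ccna2, the 10 genes all lay below the median of this list.

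S-phase transcripts had a median log2 fold change of 0.68 over 17 genes, of which 16 lay above 0. In 9 of the 17 both serum values were above both 2i values, against 20.5% of all genes. Leaving out 2i replicate 1 took the median of this list to 0.141, and leaving out 2i replicate 2 took it to 0.974. limma called 0 after adjustment, against 0.0154% of all genes in either direction. At an unadjusted limma p under 0.05 with a 2-fold change 4 passed (Ccne1, Cdc6, Gmnn and Rrm2), against 2.97% of all genes. DESeq2 called 1, Rrm2, against 0.561% of all genes higher in serum. Rrm2, a subunit of ribonucleotide reductase, was the highest with 5959 and 8917 normalized counts in the serum libraries, against 2691 and 1567 in the 2i libraries (log2 fold change 1.83). The licensing factor Cdt1 was the lowest, at 499.3 and 1322 in serum, against 772.4 and 1294 in 2i (log2 fold change -0.30).

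The 2i replicates differed from each other in both lists, and in opposite directions. From 2i replicate 1 to 2i replicate 2 the median log2 difference was -0.52 over the G2/M transcripts and 0.94 over the S-phase transcripts, and -0.34 over the 10 genes. Over all genes tested this median was 0.031. Cdk1 differed by 1.21 between these libraries, in the direction of the S-phase list. Ccnb2 differed by -1.21, Cdc25c by -0.96, Ccna2 by -0.63, Cdc25b by -0.60 and Pkmyt1 by -0.52, in that of the G2/M list. The remaining genes differed less, Ccnb1 by 0.29, Ccnf by 0.04, Wee1 by -0.08 and Cdc25a by -0.15. Between the serum replicates the medians were 0.52, 0.32 and 0.20 in the same order, and 0.045 over all genes tested. How much the cell cycle stage of the sorted cells contributed to the difference between the conditions was not tested.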

How the data were processed

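Total RNA of sorted cells was depleted of ribosomal RNA and read from random primers in single reads of 43 bases. Per the study's methods, the authors aligned reads with Bowtie to mm9, estimated transcript levels with MMSeq, kept genes with at least 50 reads in either condition and scaled with DESeq2. The deposited values are a signal, gene counts divided by a size factor of each library. In each library 100% of the values were whole multiples of a step (within 0.01), which gave back whole reads. GENCODE vM1 (NCBIM37, the same assembly as mm9) held 14462 of 14533 genes.

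Genes averaging 50 or more normalized counts in serum or in 2i entered a limma fit (limma 3.58.1, R 4.3.3) of log2-transformed values, after adding 1, with a variance trend, Benjamini-Hochberg adjustment and no replicate term. Low genes have understated fold changes on this scale. The study called genes with DESeq2. As the deposited values were scaled, DESeq2 1.42.0 and edgeR 4.0.16 on whole reads were alternatives, beside other pseudocounts, filters and scalings, leaving out each library, a replicate block, protein-coding genes alone and a correction for GC content and length (mgcv 1.9.3). The promoter sequences are from RefSeq.

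The 10 genes and the lists were chosen with earlier results of these data known. Of each list the genes at both ends were named, with any other gene of a list, and beyond the lists the 5 genes nearest in profile to the 10.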

Additional observations from a re-analysis of the deposited data

How the results depend on the processing

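limma called 0 genes higher in serum and 2 higher in 2i. With the replicate block these were 44 and 159, and with DESeq2 on whole reads 73 and 178. Genes higher in 2i numbered 4 with a mean of at least 200, 1 without the variance trend, and 0 with any library left out, with protein-coding genes alone, with the GC content and length correction, with that correction and the replicate block, and with edgeR. Of the 10 genes, 1 was called by DESeq2 and 0 by the other alternatives, also under the replicate block (Ccna2 limma adjusted p = 0.104). The replicate numbers are not known to pair the libraries, since only 2 pairs exist (r = 0.480 between their differences across genes). The median of the 10 genes, 0.87, was 0.920 with a mean of at least 200, 0.724 with upper quartile scaling, 0.761 with quantile normalization, 0.790 with edgeR, 0.802 with DESeq2, and 0.712 to 0.818 with a library left out. Upper quartile scaling moved the median of all genes to -0.141 and the mean of at least 200 moved it to 0.117.

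Ccna2, Ccnb1, Ccnb2, Ccnf, Cdc25a, Cdc25c, Wee1 and Pkmyt1 kept the sign of their log2 fold change in all alternatives run, though not its size. Cdk1 ran from -0.613 to 0.592 and Cdc25b from -0.501 to 0.0955 with a library left out, each with reversals, and the checkpoint and turnover list from -0.205 to 0.540. The adjusted p of Ccna2 ran from 0.0165 in DESeq2 to 1. Depth limits Pkmyt1, Cdc25b, Wee1 and Cdc25c most, whose lowest normalized counts were 102.1, 157.1, 181.4 and 109.6.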

Other observations

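The tested genes nearest to the median profile of the 10 genes over the 4 libraries, by Euclidean distance of log2 values centred on each gene's mean, were 2610507B11Rik (distance 0.055), Dem1 (0.060), Zcchc8 (0.065), Mttp (0.069) and Erlin1 (0.071). 2610507B11Rik had 8129 and 8709 normalized counts in the serum libraries, against 5052 and 5161 in the 2i libraries. Dem1 had 349.2 and 384.9 in serum, against 217.0 and 216.3 in 2i, and Zcchc8 had 1189 and 1293 in serum, against 723.6 and 725.6 in 2i. Mttp had 90.05 and 96.23 in serum, against 53.98 and 56.26 in 2i, and Erlin1 had 651.3 and 663.9 in serum, against 401.8 and 382.2 in 2i. Their log2 fold changes lay between 0.72 and 0.77, and none passed the test (limma, lowest adjusted p 0.753). The likeness rests on 4 libraries, which is a short profile.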
